A study of Mus musculus with 12 samples.

Results

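The stefin A inhibitors of mouse forestomach are described here by every array probe that carries one of 6 gene symbols, Stfa1, Stfa2, Stfa3, Stfa2l1, Csta and BC100530. They are 6 of the 28146 gene names on the array and 7 of its 41174 probes, Csta having 2 probes and each other symbol 1. All 7 passed the filter on dim signal, as did 30440 probes in all. The symbols were selected on results of these same data, and which of the values led to the choice is not recorded. Their levels and differences are therefore a description, and their p-values lend no independent support to any direction.

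The study asked whether drinking alcohol changes gene expression in the forestomach, which in rodents is the front chamber of the stomach and has a keratinised squamous lining. All mice were adult wild-type C57BL/6J animals, and whole forestomach RNA was used. The first group of 4 samples came from mice given 15% alcohol for 40 weeks, for which the labels name no saccharin. The second group of 4 came from mice given 20% alcohol in supersaccharin, a sweet drink, for 4 weeks. The 4 control samples came from mice given supersaccharin with 0% alcohol, with no duration stated. The alcohol groups thus differ in dose, time and possibly vehicle, and both are set against the same control samples. Nothing in the labels says that samples of a group were separate animals, so the p-values rest on sample-to-sample spread that may be technical. On every two-colour array the Cy5 dye marked forestomach RNA, while Cy3 marked a commercial pool of mouse RNA (Universal Mouse Reference RNA, Agilent) that serves as a common standard.

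Stefins are small cystatins without a secretion signal that stay in the cytosol and block papain-like cysteine proteases, such as cathepsins B, H, L and S, by binding reversibly in the active site cleft. In human squamous epithelium stefin A is made by upper keratinocytes and is cross-linked by transglutaminases into the cornified envelope, the protein shell of the dead surface cells. Mice carry a cluster of stefin A copies on chromosome 16, several of which are known from neutrophils as well as from epithelium.

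The probes are shown first because some of them could read more than 1 gene. All map to chromosome 16 on mouse build mm9, per the files, and each has 60 bases. The first set holds 3 probes that share a run of 19 bases, in capitals, which no other of the 41174 array probes contains. Of the first of these probes, bases 1 to 45 are printed, a stretch that also stands whole in the BC100530 probe.
Csta probe 1: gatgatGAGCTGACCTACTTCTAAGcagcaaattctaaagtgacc
BC100530: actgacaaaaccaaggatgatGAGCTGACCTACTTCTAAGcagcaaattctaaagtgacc
Stfa1: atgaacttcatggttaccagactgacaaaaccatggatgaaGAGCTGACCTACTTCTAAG
These lie at chr16:36122294-36122353 on the minus strand, chr16:36359525-36359584 on the minus strand and chr16:36285323-36285382 on the plus strand, in the order printed. The files' accession column gives a BC100530 transcript for all 3 probes. The values of these 3 probes are therefore uncertain as readings of separate genes.

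The second set holds the Stfa2l1 probe beside a neighbouring probe that the files name only by a transcript, ENSMUST00000077110, and the capitals mark the 26 bases that both share.
Stfa2l1: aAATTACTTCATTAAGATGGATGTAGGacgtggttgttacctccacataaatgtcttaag
ENSMUST00000077110: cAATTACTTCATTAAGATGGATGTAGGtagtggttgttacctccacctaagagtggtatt
The Stfa2l1 probe lies at chr16:36160118-36161876 and its neighbour at chr16:36136075-36137745, both on the plus strand and each over a stretch longer than the probe itself, 1759 and 1671 bases. The files list a Stfa2 transcript for the Stfa2l1 probe as well. The remaining member probes are shown next. With Stfa2 and Csta probe 2 no other array probe shared a run of 19 bases. With Stfa3 1 did, the probe of the cluster gene Gm5483, over 22 bases.
Stfa2: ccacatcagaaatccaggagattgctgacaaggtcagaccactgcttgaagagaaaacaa
Csta probe 2: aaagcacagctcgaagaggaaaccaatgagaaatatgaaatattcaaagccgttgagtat
Stfa3: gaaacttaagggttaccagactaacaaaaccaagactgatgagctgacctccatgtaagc
The Stfa2 probe lies at chr16:36405290-36408367, over 3078 bases, Csta probe 2 at chr16:36125099-36125158 and Stfa3 at chr16:36450693-36450752, all on the minus strand. In current RefSeq names Csta is Csta1 and BC100530 is Cstdc5.

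Cy5 was well above background for all 7 probes on all 8 arrays with scanner output, which are the control and 4-week arrays. Cy3 was well above background for 6 of them on the same arrays, and for Stfa2 on all but control replicates 1 and 3. No Cy5 spot of any probe was saturated. The 40-week arrays were read from the authors' deposited log2 ratios alone. The standard deviation of these ratios over all probes was 1.02 to 1.08 on the 40-week arrays, 1.48 to 1.58 on the 4-week arrays and 1.52 to 1.73 on the control arrays. Whether the 40-week columns are on the same scale or log base as the others could not be checked against scanner output here, so every 40-week difference below shares this limit. All 15 squamous epithelium markers examined passed the filter, and their mean deposited log2 ratio was 2.86 to 3.21 on 40-week arrays, 3.87 to 4.69 on 4-week arrays and 5.35 to 5.79 on control arrays. At 40 weeks against control all 15 were called lower, with a median of -2.22. The same comparison called 24.2% of all probes lower. Markers of other cell types were called lower in it too, 10 of 10 for smooth muscle with a median of -1.70. For macrophages and dendritic cells it was 12 of 15 with a median of -1.62, and for mast cells 6 of 8 with a median of -2.18. Fewer were called lower for neutrophils, 6 of 24 with a median of -0.45, and for glandular stomach, 1 of 9 with a median of -0.95. For pancreas it was 3 of 11 with a median of -2.22. With arrays scaled to 1 spread 10 of the squamous markers, 3 of the smooth muscle, 9 of the macrophage and dendritic and 4 of the mast cell markers were called lower, and 2 squamous markers higher. In that fit 4 neutrophil, 3 pancreas and 1 glandular stomach markers were called lower and 1 neutrophil marker higher. It called 20% of all probes lower and 18% higher. The part of these shifts in the member values was not tested.

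Stfa1 is one of the stefin A copies of the mouse cluster. Its deposited log2 ratio was 6.17, 6.43, 6.30 and 6.28 in the 40-week samples, 7.69, 7.51, 7.93 and 7.74 in the 4-week samples and 8.82, 8.81, 8.96 and 8.64 in the control samples, each in the order of replicates 1 to 4. The groups did not overlap, the 40-week samples being lowest and the controls highest. The 40-week minus control difference was -2.51 ± 0.12 (limma log2 difference and SE).

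Stfa2 had deposited log2 ratios of 2.20, 2.71, 2.96 and 3.28 in the 40-week samples, 3.86, 5.79, 4.38 and 3.71 in the 4-week samples and 4.55, 5.38, 6.08 and 6.02 in the controls. The 40-week samples lay below both other groups, and the 4-week samples overlapped the controls because 4-week replicate 2 stood at 5.79. The 40-week minus control difference was -2.72 ± 0.46.

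Stfa2l1, a close copy of Stfa2, had deposited log2 ratios of 3.37, 4.16, 3.91 and 4.28 in the 40-week samples, 5.59, 6.40, 5.62 and 4.98 in the 4-week samples and 5.02, 6.02, 6.13 and 6.64 in the controls. The 40-week samples lay below both other groups, which overlapped. As for Stfa2, 4-week replicate 2 was the highest of its group and control replicate 1 the lowest of its own. The 40-week minus control difference was -2.02 ± 0.36.

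Stfa3 had deposited log2 ratios of 5.75, 6.01, 5.84 and 6.14 in the 40-week samples, 7.27, 6.77, 6.71 and 6.36 in the 4-week samples and 6.85, 6.46, 7.18 and 6.58 in the controls. The 4-week and control values interleaved, and all 40-week values lay below them. The 40-week minus control difference of -0.83 ± 0.21 was the smallest of the 7 probes.

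Csta, the mouse counterpart of the human gene for stefin A, was read by both of its probes. Probe 1 had deposited log2 ratios of 5.68, 6.03, 5.78 and 5.98 in the 40-week samples, 7.76, 7.19, 7.59 and 7.53 in the 4-week samples and 9.16, 8.84, 8.93 and 8.75 in the controls, with no overlap among the groups. Probe 2 had 3.82, 4.22, 4.02 and 4.36 in the 40-week samples, 4.98, 4.80, 5.55 and 5.35 in the 4-week samples and 5.43, 6.00, 6.54 and 6.38 in the controls, with 1 4-week sample above the lowest control. The 40-week minus control differences were -3.05 ± 0.15 for probe 1 and -1.98 ± 0.25 for probe 2.

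BC100530, a member of the same cluster, had deposited log2 ratios of 6.12, 6.49, 6.19 and 6.41 in the 40-week samples, 7.82, 7.37, 7.83 and 7.68 in the 4-week samples and 9.14, 8.88, 9.03 and 8.73 in the controls. The 3 groups did not overlap. The 40-week minus control difference was -2.64 ± 0.15. Since its probe shares 45 bases with Csta probe 1, whether the spots read separate transcripts was not tested.

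**Figure D1:**
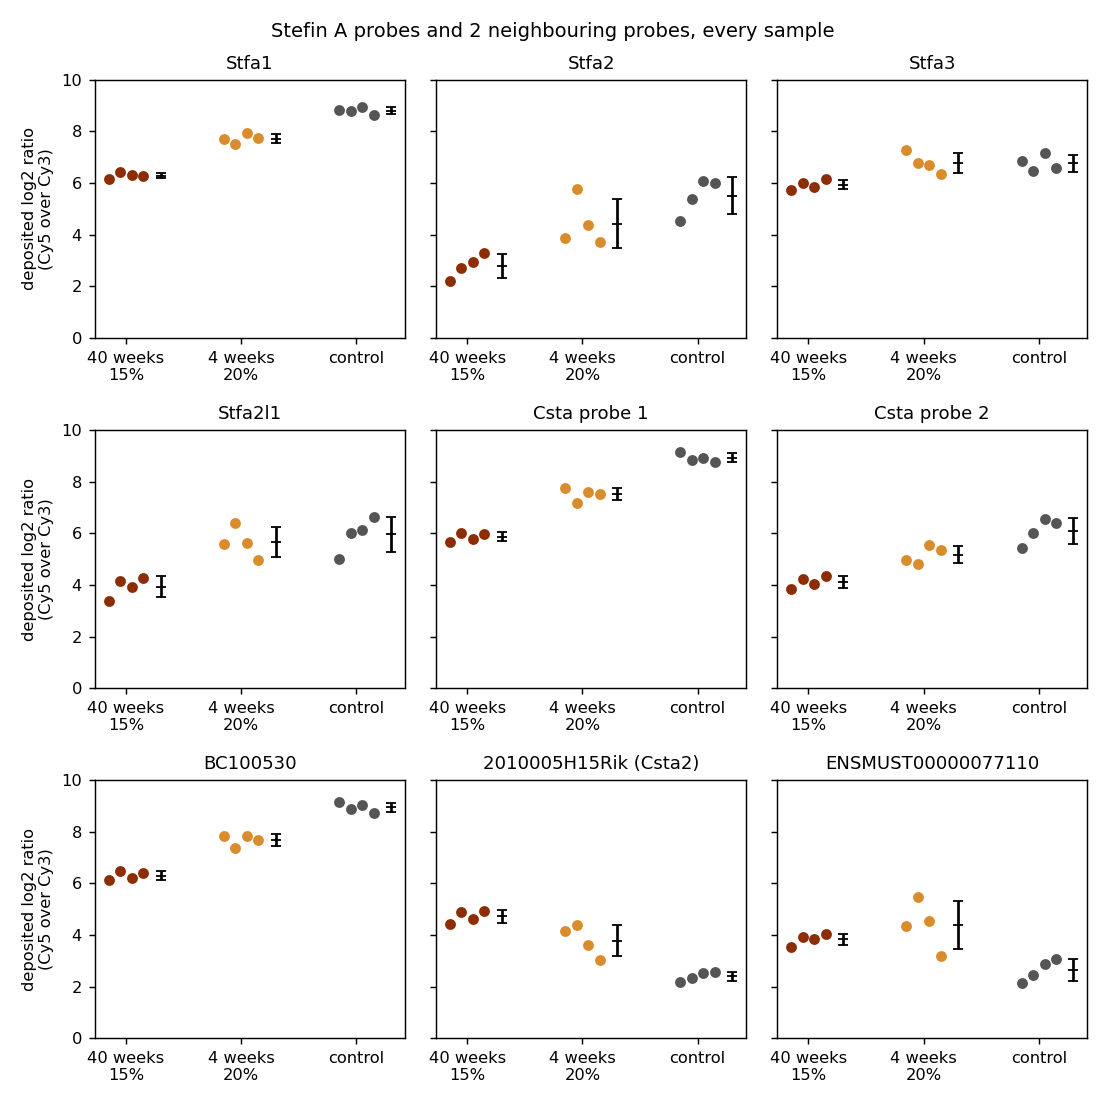
Deposited log2 ratio of Cy5 (forestomach RNA) over Cy3 (reference RNA) on the vertical axis for the 7 stefin A probes and 2 neighbouring probes, with the 40-week, 4-week and control groups on the horizontal axis. Points are samples in the order of replicates 1 to 4, and bars are mean ± SD (n = 4). The 40-week points lie below the control points for all 7 stefin A probes and above them for 2010005H15Rik and ENSMUST00000077110.

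In the limma fit of the deposited table with all 12 samples, all 7 probes were called lower at 40 weeks than in controls, with Benjamini-Hochberg adjusted p from 6.66e-07 to 0.00704. This fit called 42.2% of all 30440 probes, 24.2% lower. The median difference of the 7 probes was -2.51, beside -0.10 over all probes. Of 40-week against control, no overlap of the groups on the lower side was seen for 7 of 7 members and for 23.9% of all probes. Between 40 and 4 weeks all 7 were likewise called lower, at -0.84 ± 0.21 for Stfa3 to -1.72 ± 0.36 for Stfa2l1, where the fit called 43% of all probes, 24.7% lower, and 26.7% did not overlap on the lower side. Both differences use the same 40-week samples, so they are not independent. In a bulk sample, fewer cells of a type and less RNA per cell cannot be told apart.

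For most members the lower 40-week ratio was lost or turned once the arrays were given a common scale. With every array scaled to 1 spread, the 40-week minus control differences were 0.33 for Stfa1, -1.25 for Stfa2, 1.67 for Stfa3, -0.19 for Stfa2l1, -0.32 and -0.08 for Csta probes 1 and 2 and 0.22 for BC100530. In that fit Stfa2 was called lower (limma adjusted p = 0.0294) and Stfa3 higher (limma adjusted p = 0.000187), and the other 5 were not called, beside 20% of all probes called lower and 18% higher. With quantile normalisation between arrays, Stfa3 was higher by 1.65 ± 0.22 (limma adjusted p = 0.000229), Csta probe 1 was lower, at -0.43 ± 0.14 (limma adjusted p = 0.027) and the other 5 were not called. Against 4 weeks, scaling turned 6 of the 7 differences positive, with 5 of them called higher, beside 19.4% of all probes. Quantile normalisation left Stfa3 and Csta probe 2 called higher, by 0.72 ± 0.22 and 0.48 ± 0.17, beside 18.3% of all probes called higher there. That last normalisation called 18.1% of all probes higher and 19.8% lower at 40 weeks against control. The narrower spread of the 40-week columns and the group cannot be told apart.

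**Figure D2:**
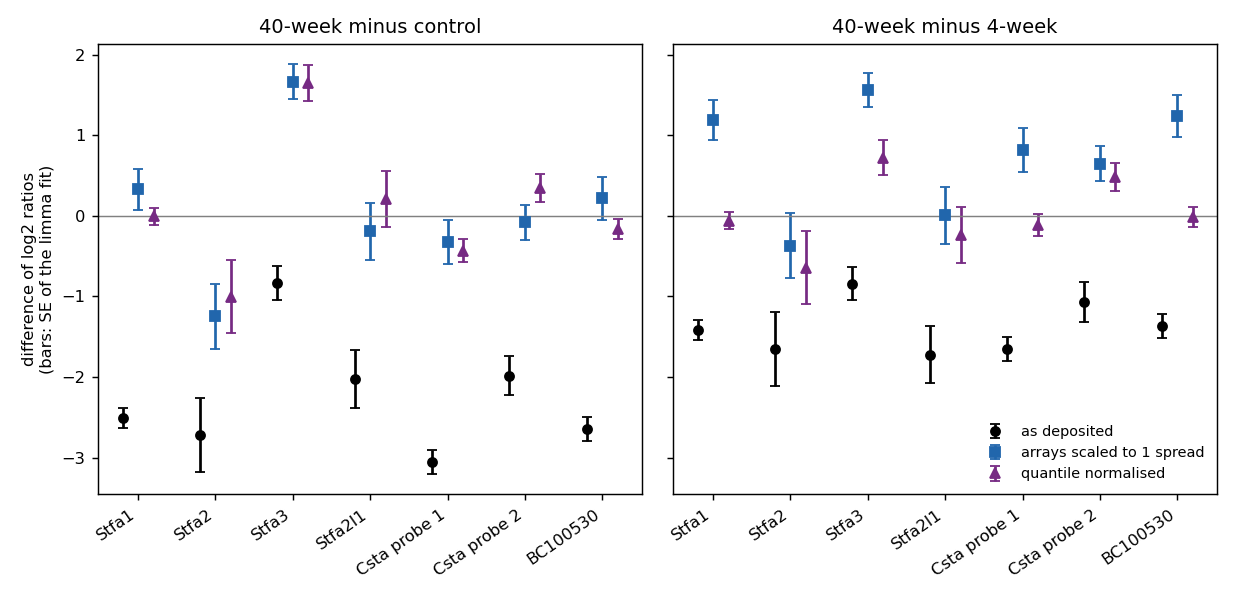
Difference of log2 ratios (vertical axis) for each of the 7 stefin A probes (horizontal axis), 40-week minus control on the left and 40-week minus 4-week on the right. Points are limma estimates with SE bars from 4 samples per group, as deposited, with arrays scaled to 1 spread, or quantile normalised. As deposited all 7 lie below 0, and with the other scalings Stfa3 lies above 0 in both panels, at 1.67 and 1.65 against control.

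Ranks of the ratio within an array do not depend on its scale. They do depend on the other probes of the array, so an unchanged rank does not show an unchanged level. Rank 1 is the highest of the 30440 kept probes. Stfa1 ranked 5 to 8 on the 40-week arrays, 3 to 8 on the 4-week arrays and 4 to 8 on the control arrays, so the groups lay within the same few positions. BC100530 ranked 6 to 8, 2 to 10 and 2 to 7 in the same order of groups. Csta probe 1 ranked 11 to 13 at 40 weeks, 3 to 14 at 4 weeks and 2 to 7 in controls, and its 40-week ranks lay below all control ranks, as in 18.9% of all probes. Csta probe 2 ranked 147 to 230 at 40 weeks, 256 to 440 at 4 weeks and 190 to 417 in controls. Stfa1, BC100530 and Csta probe 1 thus stood among the 14 highest ratios of every array.

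Stfa3 was the only member whose rank separated all 3 groups. It ranked 10 to 13 at 40 weeks, 15 to 88 at 4 weeks and 94 to 181 in controls, so that its place was highest at 40 weeks and lowest in controls. Of all probes, ranks without overlap on the higher side were seen for 17.5% at 40 weeks against control, 18.9% at 40 against 4 weeks and 6.7% at 4 weeks against control. Stfa2 ranked 707 to 1752 at 40 weeks, 119 to 1129 at 4 weeks and 279 to 785 in controls, and Stfa2l1 ranked 161 to 438, 48 to 407 and 139 to 561 in the same order. Both overlapped among the groups.

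**Figure D3:**
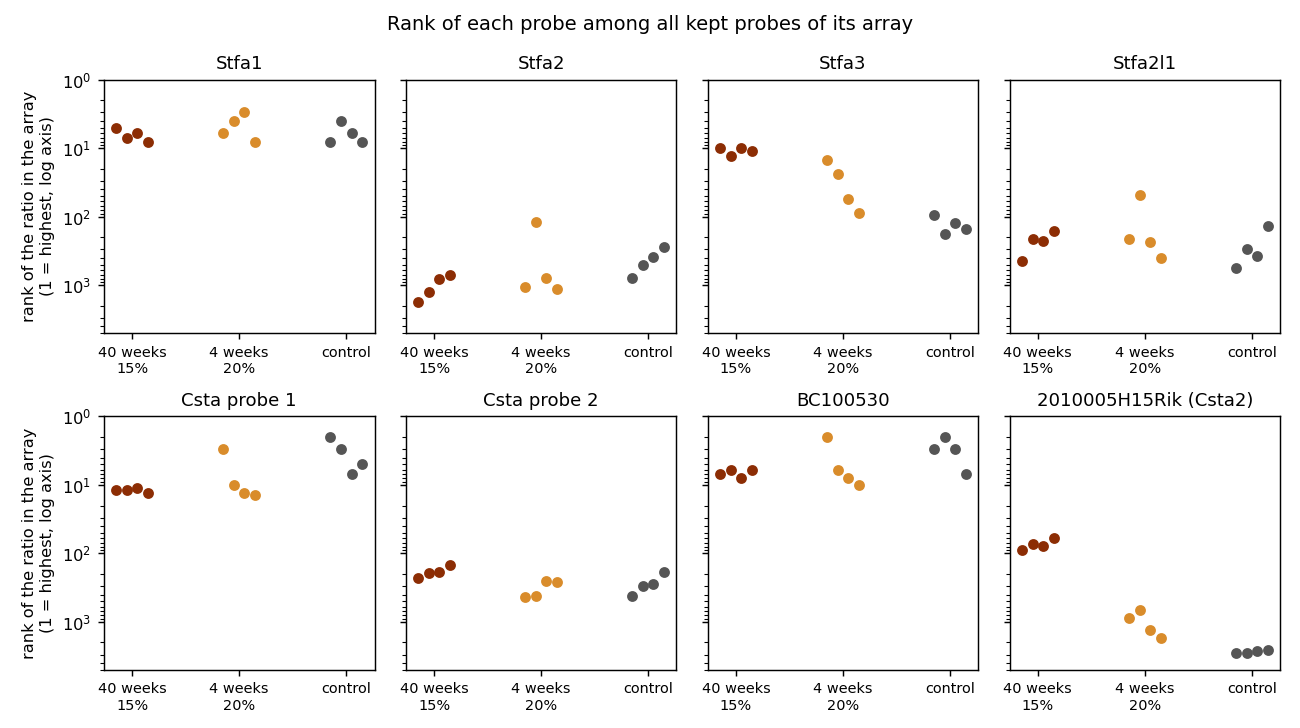
Rank of the deposited log2 ratio of each probe among the 30440 kept probes of its array (vertical log axis, 1 at the top) in the 40-week, 4-week and control groups. Points are samples. Stfa3 ranked 10 to 13 at 40 weeks and 94 to 181 in controls, and 2010005H15Rik ranked 59 to 88 at 40 weeks and 2579 to 2843 in controls.

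For 4 weeks against control the scanner output allows the ratio and both dyes to be read apart. In background-corrected, loess-normalised log2 ratios, Csta probe 1 was 7.68, 7.12, 7.47 and 7.28 in the 4-week samples and 8.80, 8.69, 8.78 and 8.60 in the controls, without overlap. It was lower, at -1.33 ± 0.14 (limma adjusted p = 0.0352). BC100530 was 7.70, 7.27, 7.67 and 7.38 in the 4-week samples and 8.68, 8.70, 8.84 and 8.55 in the controls, also without overlap, and lower, at -1.19 ± 0.13 (limma adjusted p = 0.0373). These were the called members, 2 of 7, in a fit that called 0.756% of all probes, 0.575% lower. Both calls were lost on leaving out any single array other than 4-week replicate 2, and over the 8 such fits the limma adjusted p of both probes was 0.0497 to 0.117. The differences themselves stayed at -1.42 to -1.24 for Csta probe 1 and -1.25 to -1.11 for BC100530. With quantile normalisation they were -0.25 and -0.06. With arrays scaled to 1 spread they were -0.60 and -0.45, and 0 of all probes were called by limma, with 4844 at an unadjusted p under 0.05.

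In the deposited table fitted with all 12 samples, chosen after the data were seen, 3 of 7 members were called lower at 4 weeks, beside 3.05% of all probes. These were Stfa1 at -1.09, Csta probe 1 at -1.40 and BC100530 at -1.27, with limma adjusted p of 0.00403 to 0.00449. The same table fitted with the 8 arrays alone called 0 of all probes, with 5290 at an unadjusted p under 0.05.

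Stfa1 was 7.40, 7.23, 7.41 and 6.88 at 4 weeks and 7.48, 7.98, 8.31 and 8.10 in controls. The groups did not overlap, and the difference of -0.74 ± 0.20 was not called (limma adjusted p = 0.115). The differences of Stfa2, -1.05 ± 0.71, Csta probe 2, -0.86 ± 0.27, Stfa2l1, -0.42 ± 0.63, and Stfa3, 0.05 ± 0.30, were not called either, and their groups overlapped. Groups without overlap on the lower side numbered 3 of 7 members and 5.86% of all probes.

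Cy5 alone, which carries the forestomach RNA, gave no called member, and the fit called 0.197% of all probes, 60 in number, with 4832 at an unadjusted p under 0.05 and 0 members among these. Normalised log2 Cy5 of Csta probe 1 was 17.11, 16.70, 16.62 and 15.43 in the 4-week samples and 16.71, 17.01, 16.94 and 16.84 in the controls. The 4-week values lay on both sides of the controls, replicate 4 being low, and the difference was -0.41 ± 0.31. BC100530 in Cy5 was 16.67, 16.39, 16.35 and 15.18 at 4 weeks and 16.25, 16.69, 16.44 and 16.44 in controls, a difference of -0.31 ± 0.30. Stfa1 in Cy5 was 14.82, 14.39, 14.25 and 13.28 at 4 weeks and 13.76, 13.66, 14.00 and 14.25 in controls, a difference of 0.27 ± 0.30 in the direction opposite to its ratio. The other Cy5 differences were 0.41 ± 0.44 for Csta probe 2, 0.30 ± 0.30 for Stfa3, -0.07 ± 0.66 for Stfa2l1 and -0.65 ± 0.60 for Stfa2.

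Cy3 alone, which carries the same reference RNA on every array, lay higher on the 4-week arrays for all 7 members by the group means, though without 4-week replicate 2 Stfa2 stood at -0.01 and Stfa2l1 at -0.11. None was called, beside 7.19% of all probes, 4.84% higher, and every probe's groups overlapped. Normalised log2 Cy3 of Stfa1 was 8.53, 8.40, 7.94 and 7.40 on the 4-week arrays and 7.04, 7.04, 7.30 and 7.46 on the control arrays, a difference of 0.86 ± 0.22 (limma adjusted p = 0.052). For Csta probe 1 it was 10.29, 10.52, 10.06 and 9.18 on the 4-week arrays and 8.94, 9.30, 9.36 and 9.34 on the control arrays, a difference of 0.78 ± 0.25. Without 4-week replicate 4, 4 of 7 members were called higher, beside 5.17% of all probes. These were Stfa1, both Csta probes and BC100530, at 0.95 for BC100530 to 1.53 for Csta probe 2. The other differences were 0.71 ± 0.23 for BC100530, 1.07 ± 0.40 for Csta probe 2, 0.20 ± 0.26 for Stfa2l1, 0.18 ± 0.10 for Stfa3 and 0.13 ± 0.16 for Stfa2. For Stfa1, Csta probe 1, Csta probe 2, BC100530 and Stfa2l1 the Cy3 difference was thus larger in size than the Cy5 difference. The 4-week arrays lay on one slide and the control arrays on another, so slide and group cannot be told apart. The 4-week arrays were also dimmer, with a median Cy5 signal above background of 42.4 to 112, against 112 to 151 on control arrays.

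**Figure D4:**
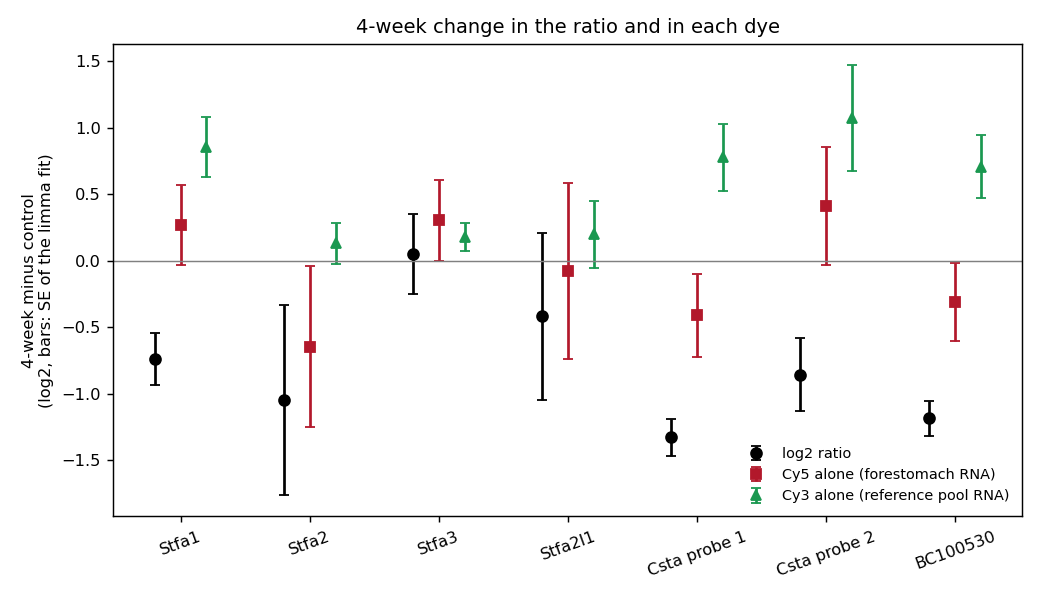
4-week minus control difference on the log2 scale (vertical axis) for the 7 stefin A probes (horizontal axis) in the ratio, in Cy5 alone and in Cy3 alone. Points are limma estimates with SE bars (n = 4 arrays per group). Cy3 lies above 0 for all 7 probes, from 0.13 to 1.07, while Cy5 lies on both sides of 0, from -0.65 to 0.41.

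Within groups some members scattered together. As deviations from the group means over the 12 samples, the deposited ratios of Stfa2 and Stfa2l1 correlated at r = 0.90, and those of Csta probe 1 and BC100530 at r = 0.96. Stfa2 and Csta probe 1 correlated at r = -0.58. These are descriptions over samples that share 1 reference RNA. The Csta probe 1 and BC100530 pair shares probe sequence, and a Stfa2 transcript is also listed for the Stfa2l1 probe. The neighbouring ENSMUST00000077110 probe correlated at r = 0.87 with Stfa2 and at r = 0.87 with Stfa2l1. The raw Cy5 signal of Stfa2l1 above local background was 621, 5966, 451 and 175 in the 4-week samples and 747, 1169, 1495 and 2277 in the controls. The highest value of each group was 4-week replicate 2 and control replicate 4. Stfa2 was highest on the same arrays, at 1632 in 4-week replicate 2 and 1768 in control replicate 4.

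The same arrays stood apart in some transcripts of other cells. Of 30 neutrophil markers 24 passed the filter, and their summed Cy5 signal was 8513 to 67394 on 4-week arrays and 33679 to 87112 on control arrays, again highest in 4-week replicate 2 and control replicate 4. Control replicate 3 was close to the latter, at 76610, so this sum did not set control replicate 4 apart. Their mean deposited log2 ratio was -0.06 to 0.94 at 40 weeks, 0.22 to 1.01 at 4 weeks and 0.21 to 1.73 in controls. Ngp and Camp, granule genes of maturing neutrophils, did not pass the filter, which used the control and 4-week arrays only. In 4-week replicate 2 Ngp stood at -0.34 and Camp at -1.86, each the lowest of its group. In control replicate 4 they stood at -0.46 and -1.53, again the lowest. Neither gene was well above background in Cy5 on any of those arrays. In 40-week replicate 4 their deposited log2 ratios were 2.07 and 3.27. In 40-week replicates 1 to 3 they were -0.50 to -0.13 for Ngp and -0.67 to -0.03 for Camp. Ltf, which encodes the granule protein lactoferrin, had a deposited log2 ratio of 4.96 in 4-week replicate 2 and 5.66 in control replicate 4. It lay at -0.21 to 0.77 in the remaining 4-week samples and at 0.01 to 0.45 in the remaining controls. At 40 weeks Ltf was 0.12 to 0.56 in replicates 1 to 3 and 2.77 in replicate 4, where Stfa2 and Stfa2l1 were also highest. Other neutrophil markers did not all follow this order. S100a8, a calcium-binding protein of neutrophils, was highest in 40-week replicate 3, at 1.47 against 1.02 in replicate 4, and so was Retnlg, at 3.17 against 2.51. Cxcr2, a chemokine receptor of neutrophils, was 2.42 in 4-week replicate 2, below the 3.49 of 4-week replicate 4, and 3.40 in control replicate 4, the lowest control. At 40 weeks against control 3 of the 24 markers were called higher and 6 lower, beside 18.1% and 24.2% of all probes. The 9 glandular stomach markers that passed summed to 1737760.2 in 4-week replicate 2 and 1508242 in control replicate 4, against 929 to 6209.5 and 2701 to 24653 on the other 4-week and control arrays. The part of these cells in the Stfa2 and Stfa2l1 values was not tested. Without these arrays and control replicate 3, which was high in pancreas genes, a setting chosen after the data were seen, the 4-week Cy5 differences were -0.70 ± 0.15 for Stfa2 and -0.48 ± 0.21 for Stfa2l1, with no call. In the same setting the 40-week minus control differences were -2.17 for Stfa2 and -1.59 for Stfa2l1, and all 7 members were called lower, beside 20.8% of all probes.

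Other genes of the cluster were read by 4 probes, of which 3 passed the filter. The probe of 2010005H15Rik, now Csta2, had deposited log2 ratios of 4.43, 4.91, 4.61 and 4.94 in the 40-week samples, 4.16, 4.37, 3.60 and 3.02 in the 4-week samples and 2.19, 2.33, 2.53 and 2.58 in the controls. The groups did not overlap at 40 weeks against either other group or at 4 weeks against control, all on the higher side, as in 17.9%, 20.1% and 5.65% of all probes. Its 40-week minus control difference was 2.32 ± 0.26 (limma adjusted p = 3.36e-05). It was 3.94 with arrays scaled to 1 spread and 3.97 with quantile normalisation, so its direction did not turn. The 4-week minus control difference was 1.38 ± 0.26 in that table, called (limma adjusted p = 0.013), and 1.18 ± 0.34 in the scanner ratio, not called (limma adjusted p = 0.133). At 4 weeks its log2 Cy5 was 9.88, 10.23, 9.57 and 9.0, against 8.46, 8.54, 8.82 and 8.75 in controls, a difference of 1.03 ± 0.24 without overlap, as in 5.91% of all probes, that was not called (limma adjusted p = 0.107), while its Cy3 difference was -0.10 ± 0.06.

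The first 25 bases of this Csta2 probe also stand in Csta probe 1 and in the BC100530 probe, so the opposite directions came from spots with partly shared sequence.
2010005H15Rik, bases 1 to 25: cttctaagcagcaaattctaaagtg
It lies at chr16:36257452-36257511 on the plus strand of mm9. The probe for ENSMUST00000077110 was higher than control by 1.19 ± 0.38 at 40 weeks and by 1.75 ± 0.38 at 4 weeks in the deposited fit (limma adjusted p = 0.0264 and 0.026), where the 4-week contrast called 5.31% of all probes, 2.26% higher, with values of 3.53, 3.94, 3.83 and 4.02 at 40 weeks, 4.35, 5.48, 4.54 and 3.19 at 4 weeks and 2.14, 2.45, 2.89 and 3.08 in controls. In the scanner ratio its 4-week difference of 1.36 ± 0.52 was not called (limma adjusted p = 0.225). Gm5483, now Cstdc4, overlapped among all groups, and the Gm4758 probe did not pass the filter.

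The promoters of the cluster are shown because most share one stretch. The 12 letters ACCTTTAAAACC are the longest run that the 60 bases before the start share in the first 5 genes printed below, a choice made after the sequences were read, and they were searched on both strands, as the one motif looked for, in RefSeq windows (GRCm38.p6, 250 bases before to 50 after each start). They stood in 9 of 12 windows of the cluster, beside 11 of all 32851 windows, or 0.0335%. Both counts include the windows of the 5 genes that defined the letters, whose matches were fixed in advance. Of the other cluster genes, Csta3, Cstdc4 and Gm7260 held the letters, and Cstdc3 had a window with them and a window without. The 60 bases before the start are printed, with the match in capitals.
Stfa1: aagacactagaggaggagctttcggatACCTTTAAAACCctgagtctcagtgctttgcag
Stfa2: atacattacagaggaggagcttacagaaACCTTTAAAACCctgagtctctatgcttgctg
Stfa3: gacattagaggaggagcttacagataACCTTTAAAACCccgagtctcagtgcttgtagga
Stfa2l1: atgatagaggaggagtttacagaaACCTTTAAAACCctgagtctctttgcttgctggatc
Cstdc5: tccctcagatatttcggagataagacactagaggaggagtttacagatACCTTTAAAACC
Csta2: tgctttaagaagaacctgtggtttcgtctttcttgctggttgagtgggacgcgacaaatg
On the plus strand these lie as Stfa1 at chr16:36277088-36277147, Stfa2l1 at chr16:36156751-36156810, Csta2 at chr16:36221502-36221561. On the minus strand they lie as Stfa2 at chr16:36408364-36408423, Stfa3 at chr16:36455393-36455452, Cstdc5 at chr16:36367571-36367630, Cstdc5 being the current BC100530. The letters were not in the windows of Csta1 or Csta2. A match is a description of the sequence and not a site, and its absence says only that these letters are not in that window.

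The papain-like cysteine cathepsins are the proteases that stefins inhibit. They were listed together with legumain, a cysteine protease that is not papain-like, as 11 genes. All 11 were kept and 0 were called at 4 weeks in the ratio or in Cy5. The largest ratio differences were -0.41 ± 0.24 for Ctsw, a protease of cytotoxic lymphocytes, 0.34 ± 0.15 for Ctsz and -0.33 ± 0.29 for Ctss. At 40 weeks against control 5 were called lower and 1 higher, beside 24.2% and 18.1% of all probes, with a list median of -0.37. Called lower were Ctsh at -1.30 ± 0.13, Ctss at -0.92 ± 0.32, Ctsc at -0.85 ± 0.17, Ctsk at -0.54 ± 0.19 and Ctsf at -0.51 ± 0.15, and called higher was Ctsz by 1.54 ± 0.15. With arrays scaled to 1 spread the calls were Ctss, the lysosomal protease of antigen-presenting cells, at -1.35, and Ctsz at 1.07. That fit called 20% of all probes lower and 18% higher. The same scaling turned Ctsf and Ctsk positive, at 0.39 and 0.18.

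Transglutaminases cross-link the envelope, and loricrin, involucrin and envoplakin are among its parts. Of 8 such genes, all kept, 2 were called lower in the ratio at 4 weeks, beside 0.575% of all probes. These were Evpl, which encodes the envelope scaffold envoplakin, at -1.30 ± 0.22 and Tgm1, a keratinocyte transglutaminase, at -1.23 ± 0.18. The list median was -1.07 in the ratio and 0.11 in Cy5, while in Cy3 it was 1.18. In Cy3 6 of 8 were called higher, beside 4.84% of all probes, namely Lor, Cnfn, Tgm3, Evpl, Tgm1 and Ivl. Lor at -1.83 ± 0.41 and Cnfn at -1.24 ± 0.32 had ratio differences that were not called. At 40 weeks against control 7 of 8 were called lower, beside 24.2% of all probes, with a median of -2.47. The largest were Lor at -3.50 ± 0.37, Ivl at -3.42 ± 0.20 and Cnfn at -2.91 ± 0.29. Tgm3 at -2.54, Evpl at -2.41, Tgm1 at -2.05 and Ppl lay below these in size. With arrays scaled to 1 spread 5 of 8 were still called lower, beside 20% of all probes, and the median was -1.17, Lor standing at -1.56 and Tgm3 at -1.27. Ppl, called lower as deposited at -1.15 ± 0.15, turned to 0.05 with that scaling, and Tgm1 turned to 0.13 with quantile normalisation.

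Of the other cystatins 9 of 15 were kept. At 4 weeks 0 were called in the ratio, the largest differences being -0.97 ± 0.31 for Fetub, -0.92 ± 0.24 for Cst6, the secreted cystatin M of epithelium, and -0.78 ± 0.62 for Kng1. Cy5 of Cst6 differed by 0.13 ± 0.13 and its Cy3 by 1.04 ± 0.18, which was called, as was the Cy3 of Fetub at 0.75 ± 0.10. At 40 weeks against control Cst6 was called lower, at -2.24 ± 0.22, and Fetub at -1.73 ± 0.28. Cst7, the cystatin of myeloid and lymphoid cells, was called higher by 1.22 ± 0.35. Of all probes 24.2% were called lower there and 18.1% higher. Ahsg, which encodes fetuin-A, differed by -1.82 ± 0.69 and was not called. Scaling to 1 spread left Cst6 called lower at -0.92 (limma adjusted p = 0.00548), left Cst7 at 0.09, not called, and turned Fetub to 0.50, and quantile normalisation turned it to 0.78, called higher (limma adjusted p = 0.00949).

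The genes whose deposited ratio was most like the mean of the 7 member probes over the 12 samples were Sprr2b (r = 0.990), Homer2 (r = 0.989), Tmem45a2 (r = 0.987), Sult2b1 and Trex2 (r = 0.985 each) and Sprr2k (r = 0.985). All 12 samples share the reference RNA, and the groups differ in spread and in mean. As deviations from the group means, r was 0.73, 0.68, 0.70, 0.78, 0.70 and 0.83 in the same order. Sprr2b averaged 1.92 at 40 weeks, 3.59 at 4 weeks and 4.50 in controls.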

How the data were processed

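Forestomach RNA of 12 samples was hybridised on two-colour Agilent arrays. The authors deposited a table of log2 ratios, Cy5 divided by Cy3. For 8 arrays scanner intensity was deposited too, from Agilent Feature Extraction, version 10.7.3.1 per the file headers and 9.1 per the submitters' processing notes. On these arrays a log2 ratio was computed from the scanner signals above local background and compared with the table. A smooth curve of the difference over intensity was first removed. What remained was within 0.05 for 97.2% to 99.9% of the probes spotted once and above background in both dyes. The check therefore does not cover offsets that vary with intensity. The 40-week scanner output was not used here.

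Control spots and outlier flags were left out. Ratios were computed in limma 3.58.1 (R 4.3.3) with normexp background correction (offset 50) and loess within arrays, and single channels with normexp and quantile normalisation. A probe was kept if its Cy5 spot exceeded background clearly on 3 or more of 4 arrays in a group with scanner output. A call is a Benjamini-Hochberg adjusted p under 0.05 over all kept probes in limma. The 40-week comparisons used the deposited ratios of all 3 groups. No saturated spot was seen. Precision is limited by how many arrays there are. Alternatives were other background corrections, scalings and filters, a replicate block and leaving out arrays.

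The members, gene lists and tests were chosen with earlier results of these data known. Named are all member probes, for the lists of other cystatins, cathepsins and envelope partners the genes called and the 3 with the largest change in the ratio in the comparisons described, and the 6 genes of most like pattern. Cell type marker lists are given by counts. Other genes named were chosen after their values were seen.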

Additional observations from a re-analysis of the deposited data

Results flagged for a closer look

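In 4 of 49 groups of 4 arrays 1 array stood far from the other 3, by the gap to its nearest neighbour over the whole range, and chance alone gives this in about 1 in 20 groups. Normalised log2 Cy5 of Stfa2 was 10.45 in 4-week replicate 2, with a gap of 0.976 of the range. Normalised log2 Cy3 of Stfa2l1 was 7.73 on the same array, with a gap of 0.894. Normalised log2 Cy5 of Csta probe 2 was 12.38 in 4-week replicate 4, with a gap of 0.933. Normalised log2 Cy3 of Csta probe 1 was 8.94 in control replicate 1, with a gap of 0.859.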

How the results depend on the processing

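Of 4 weeks against control, the 2 called ratios became 0 with median centring, scaling to 1 spread, the deposited table of 8 arrays, a replicate block and, added after the data were seen, quantile normalisation. They became 4 with the scanner's processed signals, 3 without background correction, 3 in the deposited table of all 12 samples (1616 over all probes), added likewise, and 0 to 2 on leaving out 1 array. Over all probes the 230 calls became 0 in those 5 settings, with 3921, 4844, 5290, 5497 and 5005 at an unadjusted p under 0.05, 652 with processed signals (37.7% higher, against 23.9% as reported), 610 without background correction, 400 without the 3 arrays high in other organs' transcripts, 27 with offset 10 and 0 to 22 without 1 array. The 60 calls in Cy5 became 91 without the filter, 0 to 9 without 1 array, and 0 with median centring, the block or without those 3 arrays, where 3644, 5680 and 5964 had an unadjusted p under 0.05. The 2190 calls in Cy3 became 1048 with median centring (91.4% higher, against 67.2%), 1361 with the block, 350 without those 3 arrays and 680 to 3012 without 1 array. Stfa3 turned to -0.087 with median centring, to -0.10 without background correction and ranged over -0.18 to 0.29 without 1 array. Stfa2l1 ranged over -1.01 to 0.029 without 1 array, and quantile normalisation gave 0.26 for it, 0.35 for Stfa1, 1.06 for Stfa3, -0.25 for Csta probe 1 and -0.06 for BC100530, while median centring gave -1.57 and -1.40 for the called pair. In Cy5, leaving out 1 array gave -0.82 to 0.29 for Stfa2l1 and -0.48 to 0.012 for BC100530. In Cy3 the 0 called members became 1 with median centring and 0 to 4 without 1 array. Cy3 of Stfa2 ranged over -0.014 to 0.23 and that of Stfa2l1 over -0.11 to 0.32 without 1 array, and Stfa2l1 was -0.12 without the 3 arrays high in other organs' transcripts, a setting added after the data were seen. The cause was not tested.

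Of 40 weeks against control, the 7 calls became 2 with scaling and 2 with quantile normalisation, added likewise. Scaling turned Stfa1 to 0.33, Stfa3 to 1.67 and BC100530 to 0.22, and quantile normalisation turned Stfa3 to 1.65, Stfa2l1 to 0.21 and Csta probe 2 to 0.35. Against 4 weeks, scaling turned Stfa1 to 1.19, Stfa3 to 1.56, Stfa2l1 to 0.0054, Csta probe 1 to 0.82, Csta probe 2 to 0.65 and BC100530 to 1.24. Quantile normalisation left 2 calls there and turned Stfa3 to 0.72 and Csta probe 2 to 0.48. Without 40-week replicates 3 and 4 the calls over all probes were 7067 against control and 7150 against 4 weeks, beside 12852 and 13096. All 7 calls of both comparisons were kept on leaving out any 1 array. The replicate block gave 7 calls in each 40-week comparison and 0 in either channel. Same-numbered deviations of 4-week and control samples correlated at 0.32, -0.46, 0.16 and -0.24, those of 40-week and control samples at 0.20, 0.08, 0.09 and 0.16, and those of 40-week and 4-week samples at 0.19, -0.18, -0.15 and 0.01. The titles do not say that equal numbers pair samples, so the main fits used no block. The 40-week and control correlations were all positive, and whether those samples were paired was not tested. Without scanner output, signal over background of the 40-week arrays could not be examined here.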
